A study of Mus musculus with 18 samples.

Results

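The genes described here are 10 late targets of lipopolysaccharide (LPS) in macrophages, measured in the first 30 min of the response: Il6, Il12b, Nos2, Saa3, Acod1, Cfb, C3, Lcn2, Marco and Csf3. They were followed through every probe set to which the platform annotation gives a member's symbol alone, out of 45101 probe sets on the array. This rule found 11 probe sets for 9 of the 10 genes, with a pair each for Il12b and Marco. C3 was not analysed here, because the annotation gives its symbol to no probe set. A gene with a pair of probe sets is represented by the brighter of them on average.

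The cells were macrophages grown for 7 days from bone marrow of IL-10-/- mice, with CSF-1 from L-cell conditioned medium, to a stated purity above 95%. They were then given LPS at 100 ng/ml plus IL-10 at 10 ng/ml, or LPS at 100 ng/ml alone, for 10, 20 or 30 min in medium without CSF-1. All groups therefore share the IL-10-/- genotype, as labelled, all received LPS, and no untreated cells were measured, so the levels at 10 min are the earliest ones available. Each of the 6 groups has 3 arrays, and each replicate number is a separate experiment, run one after another on mice matched for age and sex, so that 6 arrays share each of experiments 3, 2 and 1. The labels do not say how many mice gave cells to an experiment.

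Macrophage genes that answer LPS are commonly divided into primary genes, whose promoters are ready and which respond within minutes, and secondary genes, which need newly made proteins or remodelled chromatin first. The proteins that secondary genes wait for include the NF-kB cofactor encoded by Nfkbiz, the transcription factor C/EBP-delta and, for some, interferon acting back on the cell. Several of the genes here are textbook secondary genes, and IL-10 is known to restrain many of them through STAT3. Their products are cytokines (Il6, the Il12b subunit shared by IL-12 and IL-23, and Csf3, the granulocyte growth factor), antimicrobial enzymes (Nos2, which makes nitric oxide, and Acod1, which makes itaconate), acute phase and complement proteins (Saa3, Lcn2, Cfb and C3) and the scavenger receptor Marco.

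The arrays had been scaled to nearly the same mean signal, and their median signals lay between 75.6 and 120.9 in array units. The LPS 20 min arrays of experiments 2 and 3 stood apart, with medians of 120.9 and 110.8 and with lower quartiles of 38.6 and 34.0, against lower quartiles of at most 31.0 on the other arrays. All 12 macrophage markers on a list of such genes, among them Csf1r, Adgre1 and Cd68, passed the filter on dim probe sets described below, and their summed signal was 170074 to 248226 in experiment 3, 180279 to 230810 in experiment 2 and 152338 to 192695 in experiment 1. The Il10 probe set had signals between 602 and 3209, and since the sources used here do not place it relative to the deleted part of the gene, it checks nothing about the genotype. In total RNA of a culture, fewer cells of a type and less RNA per cell cannot be told apart.

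At 10 to 30 min of LPS, Saa3, Acod1 and Marco were already bright, Lcn2 and Cfb were bright in some experiments, and Il6, Il12b, Nos2 and Csf3 were dim in all of them. As a yardstick, 34 genes restricted to other tissues, such as liver, muscle or retina, were read on the same arrays. Their 95th percentile was 198 to 477 signal units depending on the array, and their median 28.0 to 83.4. Saa3, Acod1 and Marco exceeded that 95th percentile on 18 of 18 arrays, the dimmer Marco probe set on 8. Lcn2 did so on 5 arrays of experiment 3, 6 arrays of experiment 2 and 0 arrays of experiment 1, and Cfb on 2, 6 and 0 arrays of the same experiments. Il6, Il12b, Nos2 and Csf3 exceeded it on 0 arrays.

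**Figure D1:**
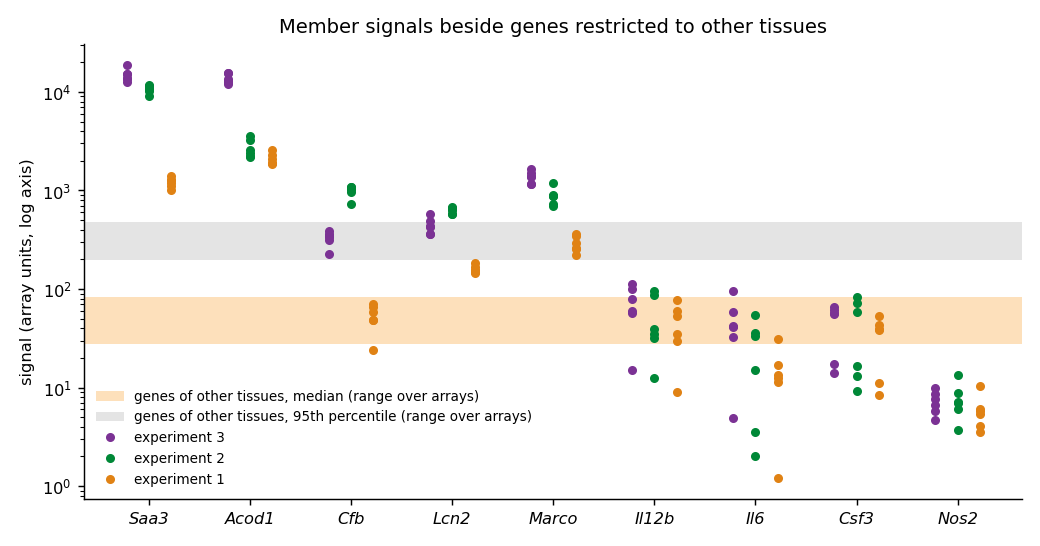
Signal of the representative probe set of each of 9 secondary LPS response genes on 18 arrays (log axis, array units), 1 point per array, coloured by experiment. The bands span, over arrays, the median (28.0 to 83.4) and the 95th percentile (198 to 477) of 34 genes restricted to other tissues; Saa3, Acod1 and Marco lie above the 95th percentile of their own array on all 18 arrays, and Nos2 lies below the lower band.

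Among the acute phase genes, Saa3, which encodes a serum amyloid A apolipoprotein made by macrophages, ranked between the 84.4th and the 99.2nd percentile of its array. In experiment 3 its signal was 13572.5, 15131 and 13779 at 10, 20 and 30 min of LPS plus IL-10, and 15149, 18933 and 12698.5 at the same times of LPS. In experiment 2 it was 11784.5, 9127 and 10839 with LPS plus IL-10, and 10760.1, 10113 and 11376.5 with LPS. In experiment 1 it was 1114, 1264 and 1416 with LPS plus IL-10, and 1004, 1278 and 1203 with LPS. All arrays of experiments 3 and 2 were thus several times brighter than all arrays of experiment 1, whatever the treatment or time, and the 3 experiments did not overlap. Saa3 averaged 14877 ± 2202 in experiment 3, 10667 ± 945 in experiment 2 and 1213 ± 143 in experiment 1 (SD, n = 6 arrays each).

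Lcn2, whose product is a lipocalin that withholds iron from bacteria by binding their siderophores, had a lower level with a different order. In experiment 3 its signal was 488, 571 and 428 at 10, 20 and 30 min of LPS plus IL-10, and 358, 358 and 439 with LPS. In experiment 2 it was 582, 678.5 and 583 with LPS plus IL-10, and 627, 670.1 and 642 with LPS. In experiment 1 it was 152, 149.6 and 185 with LPS plus IL-10, and 154, 145 and 168 with LPS. Experiment 2 was the brightest in 6 of 6 groups and experiment 1 the dimmest in 6 of 6, with no overlap between any of the experiments.

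Cfb encodes factor B, the protease that carries the alternative complement pathway. Its signal in experiment 3 was 365, 335 and 314 at 10, 20 and 30 min of LPS plus IL-10, and 391, 228 and 348.5 with LPS. In experiment 2 it was 1082, 972 and 733 with LPS plus IL-10, and 1043, 1083 and 1038 with LPS. In experiment 1 it was 66.3, 48.8 and 48.7 with LPS plus IL-10, and 58.7, 70.3 and 24.2 with LPS. The order of experiments was that of Lcn2 in 6 of 6 groups, again without overlap. In experiment 1 the Cfb probe set was below the median of its array on 6 of 6 arrays, so its low level there cannot be told from background.

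Acod1 encodes aconitate decarboxylase, which turns a citric acid cycle intermediate into itaconate. In experiment 3 its signal was 12063, 12752 and 12839 at 10, 20 and 30 min of LPS plus IL-10, and 15482, 15694.5 and 13499.5 with LPS. In experiment 2 it was 2560.2, 2246 and 3224 with LPS plus IL-10, and 2398, 2212 and 3545 with LPS. In experiment 1 it was 1882, 2083 and 2580.1 with LPS plus IL-10, and 1899.8, 1839.8 and 2313 with LPS. Experiment 3 stood alone for this gene, while experiments 2 and 1 overlapped. Even the lowest of its 18 values was at the 90.7th percentile of its array.

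Marco, the class A scavenger receptor that binds bacteria and particles, had a signal of 1514.5, 1168 and 1636 at 10, 20 and 30 min of LPS plus IL-10 in experiment 3, and of 1359.9, 1165 and 1410.0 with LPS. In experiment 2 the values were 691, 897 and 872 with LPS plus IL-10, and 1178, 876 and 726 with LPS. In experiment 1 they were 295, 358 and 255 with LPS plus IL-10, and 348, 219.6 and 262 with LPS. Experiment 3 was brighter than experiment 2, and experiment 2 than experiment 1, in 6 of 6 groups, although the arrays of experiments 3 and 2 overlapped in range. The other Marco probe set was dimmer and had the same order, with means of 593 ± 140.0 in experiment 3, 391 ± 82.1 in experiment 2 and 115 ± 27.9 in experiment 1 (SD, n = 6 arrays each).

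**Figure D2:**
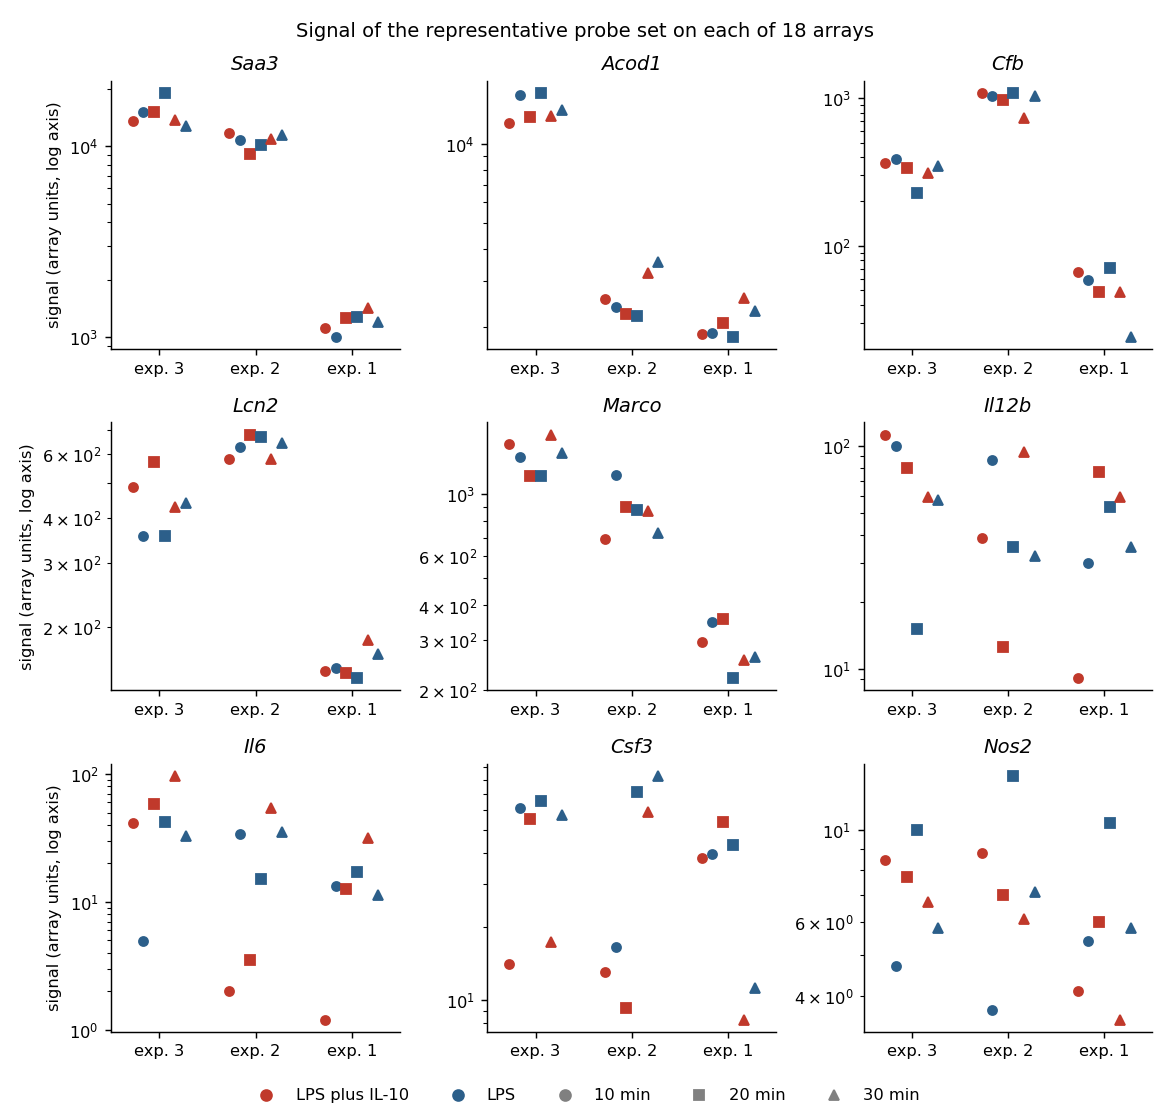
Signal of the representative probe set of each gene (log axis, array units) on 18 arrays, grouped by experiment, with LPS plus IL-10 in red, LPS in blue and the time given by the symbol. Saa3, Cfb and Lcn2 form 3 separate clusters by experiment, Acod1 separates experiment 3 from the others, Marco separates experiment 1, and the points of Il12b, Il6, Csf3 and Nos2 overlap between experiments.

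The cytokine genes gave low values. Il6 had signals between 1.2 and 96.4 (median 24.2) over the 18 arrays and passed its array's median on 1 of them, the LPS plus IL-10 30 min array of experiment 3. Csf3 lay between 8.3 and 82.9 (median 41.5) and passed it on 0 arrays. The brighter Il12b probe set lay between 9.1 and 112.7 (median 55.4) and passed it on 5 arrays, and the dimmer one lay between 3.2 and 115.5 (median 36.9) and passed it on 2. Nos2 was the dimmest gene, with signals between 3.5 and 13.5 (median 6.4), at most at the 15.5th percentile of its array. These 4 genes thus stayed below the 95th percentile of the genes of other tissues on all arrays. Some of those genes, such as Cela1 and Acta1, reached the array median on 18 of 18 arrays, so that percentile is not a pure background level. Against their median, the brighter Il12b probe set was higher on 13 arrays, Csf3 on 9, Il6 on 2 and Nos2 on 0. Without detection calls no level can be given for these 4 genes.

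To set the promoters beside these levels, the 250 bases before the transcription start were read from a table of RefSeq promoters (GRCm38.p6), in which 7 of the 10 genes were matched; windows of Nos2, Cfb and Csf3 were not used here. Windows are shown for the 4 genes found there that differed between experiments, and for Il6 as a dim gene. Letters in capitals mark matches, on either strand, to 4 motifs: NF-kB (GGGA, any 4 bases, CC), C/EBP (TTGC, any 2 bases, AA), AP-1 (TGA, any base, TCA) and the TATA box (TATAAA). The windows are Saa3 chr7:46715677-46715926 (minus strand), Lcn2 chr2:32387740-32387989 (minus strand), Acod1 chr14:103046762-103047011 (plus strand), Marco chr1:120505025-120505274 (minus strand) and Il6 chr5:30012864-30013113 (plus strand).
Saa3: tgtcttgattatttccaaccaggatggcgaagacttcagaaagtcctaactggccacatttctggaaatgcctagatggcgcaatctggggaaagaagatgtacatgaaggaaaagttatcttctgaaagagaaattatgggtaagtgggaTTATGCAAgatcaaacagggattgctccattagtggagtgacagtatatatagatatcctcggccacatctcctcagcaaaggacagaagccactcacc
Lcn2: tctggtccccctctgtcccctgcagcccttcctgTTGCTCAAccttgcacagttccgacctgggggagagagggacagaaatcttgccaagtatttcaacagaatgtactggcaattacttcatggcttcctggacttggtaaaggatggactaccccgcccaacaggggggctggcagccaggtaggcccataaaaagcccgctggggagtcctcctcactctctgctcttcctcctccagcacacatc
Acod1: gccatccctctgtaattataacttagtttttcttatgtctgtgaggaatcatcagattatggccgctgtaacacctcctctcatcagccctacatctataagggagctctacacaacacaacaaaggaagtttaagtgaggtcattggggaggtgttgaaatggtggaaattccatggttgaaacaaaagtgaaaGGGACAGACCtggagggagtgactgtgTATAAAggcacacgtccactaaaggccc
Marco: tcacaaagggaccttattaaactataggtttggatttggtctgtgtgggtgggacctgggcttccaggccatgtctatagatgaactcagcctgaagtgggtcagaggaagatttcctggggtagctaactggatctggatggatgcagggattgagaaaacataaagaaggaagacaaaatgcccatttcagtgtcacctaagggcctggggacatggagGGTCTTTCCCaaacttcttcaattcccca
Il6: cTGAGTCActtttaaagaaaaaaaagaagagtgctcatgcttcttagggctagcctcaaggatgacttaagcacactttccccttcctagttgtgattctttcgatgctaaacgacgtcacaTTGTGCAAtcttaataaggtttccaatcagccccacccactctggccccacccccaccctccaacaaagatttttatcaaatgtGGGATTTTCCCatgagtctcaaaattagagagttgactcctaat
Saa3 and Lcn2 each held a C/EBP match, at 99 to 92 and at 216 to 209 bases before the start. Acod1 held an NF-kB match at 55 to 46 bases and a TATA box at 28 to 23 bases, and Marco an NF-kB match on the minus strand at 29 to 20 bases. Il6 held NF-kB matches on both strands that overlap each other, from 44 to 34 bases, a C/EBP match at 128 to 121 bases and an AP-1 match at 249 to 243 bases. Over the 7 windows, which include Il12b with no match to these letters and C3 with both an NF-kB and a C/EBP match, 4 held the NF-kB letters and 4 the C/EBP letters. Of all 32851 windows of this length, 17.6% held the NF-kB letters, 9.56% the C/EBP letters, 6.75% the AP-1 letters and 12.4% the TATA box.

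The difference between the experiments was tested next, on the log2(signal + 16) scale, with limma fitted to all probe sets whose signal reached the array median on at least 3 arrays. This filter kept 27110 probe sets, among them 7 of the 11 member probe sets, which belong to 6 genes (Saa3, Acod1, Cfb, Lcn2, Marco and the brighter Il12b probe set). Cfb passed only through experiments 3 and 2, where it was high, so its calls against experiment 1 were favoured by the filter and are not counted below unless stated. Il6, Nos2, Csf3 and the dimmer Il12b probe set did not pass, and values for them come from a fit without the filter. Because the 6 arrays of an experiment share its cultures, the p-values measure the spread between arrays of an experiment and not between experiments.

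Between experiments 3 and 1, Saa3, Acod1, Marco and Lcn2, whose representative probe sets lay above the array median on all 18 arrays, were higher in experiment 3 at an adjusted p under 0.05, where 22.9% of all probe sets tested were higher and 44.3% differed in either direction. Saa3 differed by 3.59 (95% interval 3.39 to 3.80, adjusted p = 1.7e-14). Acod1 differed by 2.70 (2.48 to 2.92, adjusted p = 1.9e-12). Marco differed by 2.20 (1.93 to 2.46, adjusted p = 2.4e-10) and Lcn2 by 1.37 (1.12 to 1.61, adjusted p = 3.9e-08). A called difference of at least 2 in the higher direction, which Saa3, Acod1 and Marco had, was found in 0.302% of the probe sets tested. As a ratio of signals, the geometric mean over the 6 groups was 12.2 for Saa3, 6.55 for Acod1, 4.78 for Marco and 2.74 for Lcn2. In experiment 1 Lcn2 exceeded the 95th percentile of the genes of other tissues on 0 arrays, so its ratio is less certain. It exceeded their 75th percentile on all 18 arrays. Cfb had 228 to 391 in experiment 3 against 24.2 to 70.3 in experiment 1, where it cannot be told from background, so no fold is given for it.

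Between experiments 2 and 1 the same 4 genes were higher in experiment 2, against 18.5% of all probe sets tested that were higher and 17.3% that were lower (35.8% in either direction). Saa3 differed by 3.12 (2.92 to 3.33, adjusted p = 6.0e-13), Lcn2 by 1.89 (1.64 to 2.13, adjusted p = 1.0e-09) and Marco by 1.54 (1.28 to 1.80, adjusted p = 3.2e-08). Acod1 differed by only 0.35 (0.13 to 0.57, adjusted p = 0.0146), and this call was lost without the LPS plus IL-10 10 min arrays (0.33, adjusted p = 0.0538) and without the LPS 30 min arrays (0.29, adjusted p = 0.0505). Cfb had 733 to 1083 in experiment 2 against 24.2 to 70.3 in experiment 1, and the size of that difference depends on the pseudocount, at 3.18 with a pseudocount of 64 and 4.27 with a pseudocount of 1.

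Between experiments 3 and 2 the genes went separate ways. Acod1 was 2.36 higher in experiment 3 (2.14 to 2.58, adjusted p = 2.0e-11), Marco 0.66 higher (0.40 to 0.92, adjusted p = 0.000688) and Saa3 0.47 higher (0.27 to 0.68, adjusted p = 0.00154). Cfb was lower in experiment 3, with a difference of -1.55 (-1.90 to -1.20, adjusted p = 1.5e-06), and so was Lcn2, with -0.52 (-0.76 to -0.28, adjusted p = 0.00274). In this comparison 11.8% of all probe sets tested were higher and 12.3% lower (24.1% in either direction). The 5 genes therefore did not share a single order of experiments: Saa3, Acod1 and Marco were highest in experiment 3, and Cfb and Lcn2 in experiment 2. Arrays of the experiments compared did not overlap for Saa3 and Lcn2 in each of these comparisons, against 25.9% of probe sets without overlap between experiments 3 and 1, 20.7% between experiments 2 and 1 and 12.4% between experiments 3 and 2. Without the LPS 20 min arrays of experiments 2 and 3, which stood apart, each comparison still gave the same number of called genes, 5 with Cfb counted.

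**Figure D3:**
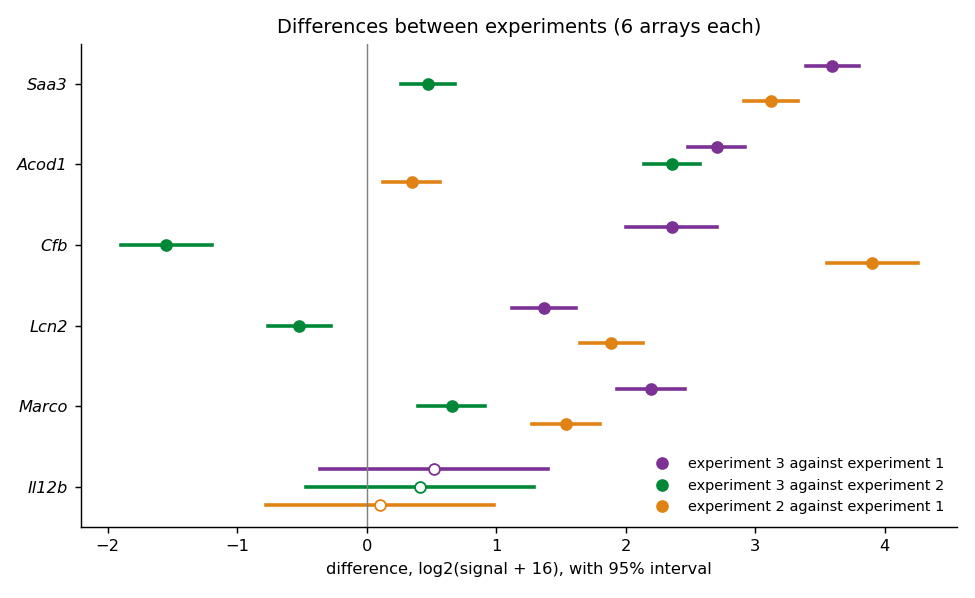
Differences between experiments on the log2(signal + 16) scale for the 6 genes that passed the filter, with 95% intervals; filled points passed an adjusted p of 0.05 and open points did not. Cfb and Lcn2 are the 2 genes whose difference between experiments 3 and 2 is negative (-1.55 and -0.52), while Il12b passed in none of the 3 comparisons. Cfb was below the array median on all 6 arrays of experiment 1, so its differences from that experiment depend on the pseudocount.

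For the dim genes the comparison was less certain. The brighter Il12b probe set differed by 0.52 (-0.363 to 1.399, adjusted p = 0.335) between experiments 3 and 1, by 0.10 (-0.78 to 0.99) between experiments 2 and 1, and by 0.41 (-0.47 to 1.29) between experiments 3 and 2. The dimmer one averaged 80.1 ± 25.0 in experiment 3, 24.2 ± 18.6 in experiment 2 and 21.0 ± 18.0 in experiment 1 (SD, n = 6 arrays each). It passed the test for experiment 3 against experiment 1 (adjusted p = 0.00345) and against experiment 2 (adjusted p = 0.014) in the fit without a filter, at signals within the range of the genes of other tissues, so no difference in level is drawn from it. Il6 differed by 0.92 (0.19 to 1.64, adjusted p = 0.0573) between experiments 3 and 1. Genes of other tissues, with which these values overlap, summed to 3728 to 4859 in experiment 3, 3263 to 5167 in experiment 2 and 2725 to 3119.5 in experiment 1. Of their 15 tested members, 6 were higher in experiment 3 than in experiment 1, where 22.9% of all probe sets tested were higher. The part of this in the Il12b and Il6 differences was not tested. Nos2 and Csf3 differed by at most 0.11 (-0.26 to 0.48) and 0.33 (-0.51 to 1.18) in these comparisons.

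Variation was also divided between experiment, treatment and time for the 6 genes that passed the filter. The experiment accounted for 99.1% of the sum of squares of log2 signal for Saa3, 97.3% for Acod1, 97.2% for Cfb, 96.4% for Lcn2 and 94.5% for Marco, while treatment and time together accounted for 0.173%, 1.09%, 0.826%, 1.05% and 2.00% in the same genes. Over all probe sets tested the median shares were 37.9% for the experiment and 18.5% for treatment and time. A larger share for the experiment than that of Saa3 was found in 0.0221% of probe sets tested, than that of Acod1 in 0.380%, of Cfb in 0.432%, of Lcn2 in 0.697% and of Marco in 1.51%. The value for Cfb includes the background signals of experiment 1. For Il12b, the dim gene among the 6, the experiment took 10.6% and the residual 70.4%.

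**Figure D4:**
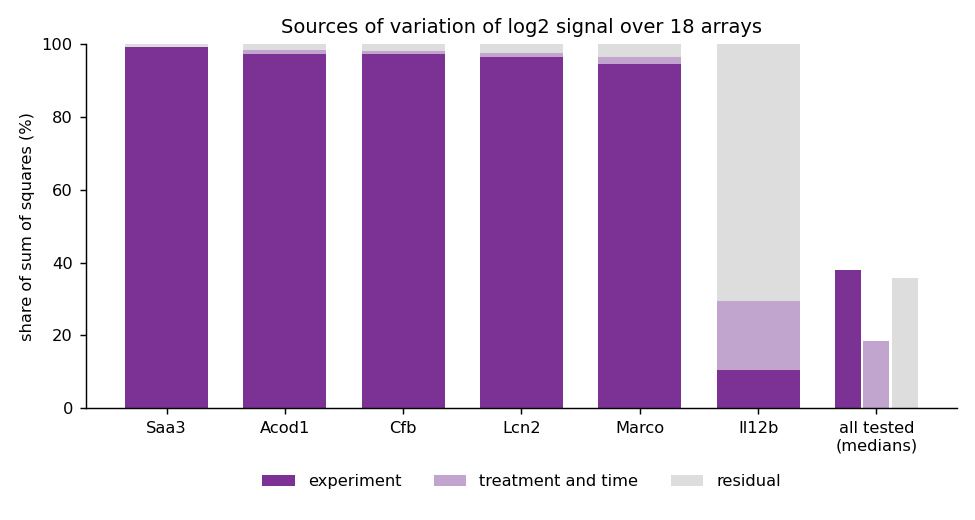
Share of the sum of squares of log2(signal + 16) over 18 arrays (percent) taken by experiment, by treatment and time, and by the residual, for 6 genes as stacked bars, with the medians over all probe sets tested as separate bars on the right. Experiment takes 94.5% to 99.1% for Saa3, Acod1, Lcn2 and Marco and 10.6% for Il12b. Cfb, at 97.2%, passed the filter only through experiments 3 and 2, which favoured its share.

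Other late LPS genes on a list of 50, of which 31 could be tested, were also unequal between experiments. Between experiments 3 and 1, 19 were higher and 4 lower, with a median difference of 0.81 against 0.11 over the 12484 genes tested. Between experiments 2 and 1, 20 were higher and 1 lower, with a median of 0.53 against 0.12. Between experiments 3 and 2, 11 were higher and 10 lower, with a median of -0.05 against -0.01. Over all genes tested, 3361 were higher and 2543 lower in the first of these comparisons, 2995 and 1858 in the second, and 1619 and 1959 in the third. Cxcl11, at 7.5 to 31.2 in experiment 1, passed the filter only through experiments 3 and 2, and Cp, described below, mainly so. The filter favoured the differences of Cxcl11 and Cp from experiment 1. Arg2 passed mainly through experiment 3, at 66.7 to 133.5 against 30.5 to 70.9 in experiment 2 and 6.6 to 76.3 in experiment 1. Its differences of experiment 3 from the others were favoured likewise. The counts and medians of the 31 include these genes.

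Single genes of that list had orders of experiments like those above. Fpr2, a receptor for formyl peptides and serum amyloid A, had a signal of 6007 ± 279 in experiment 3, 728 ± 79.4 in experiment 2 and 271 ± 43.8 in experiment 1. It was 4.41 higher in experiment 3 than in experiment 1 and 3.02 higher than in experiment 2 (adjusted p = 1.1e-15 and 5.8e-13), so experiment 3 stood far above the others as it did for Acod1. Ccl5, a chemokine for T cells and monocytes, had 1128 ± 235 in experiment 3, 7097 ± 728 in experiment 2 and 149 ± 19.2 in experiment 1 (SD, n = 6 arrays each for both genes). It was 5.44 higher in experiment 2 than in experiment 1 (adjusted p = 8.5e-18) and lower in experiment 3 than in experiment 2, by -2.65 (adjusted p = 5.8e-13), the order seen for Cfb. Cp, which encodes the copper carrier ceruloplasmin, was brighter in experiment 3, at 321.6 to 668.4 against 10.5 to 88.1 in experiment 1. Its median in experiment 1, 40.9, was below the lowest array median, 75.6, so that level cannot be told from background. The filter favoured this difference, so no fold is given for Cp. The chemokine gene Ccl12 went the other way, at -2.05 between experiments 3 and 1 (adjusted p = 8.9e-09), as did Il1rn, which encodes the interleukin-1 receptor antagonist, at -1.72 (adjusted p = 5.1e-09).

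Some regulators named for secondary genes differed too. Cebpd, the gene of C/EBP-delta, had a signal of 2979 ± 603 in experiment 3, 2309 ± 485 in experiment 2 and 697 ± 124 in experiment 1, and was higher in experiment 3 than in experiment 1 (2.06, adjusted p = 5.3e-10) and in experiment 2 than in experiment 1 (1.70, adjusted p = 8.8e-09). Cebpa, another C/EBP gene, had 746 ± 146 in experiment 3, 2733 ± 479 in experiment 2 and 645 ± 75.7 in experiment 1. It was higher in experiment 2 than in experiment 1 (2.05, adjusted p = 3.2e-10) and lower in experiment 3 than in experiment 2 (-1.86, adjusted p = 1.3e-09). Irf7, an interferon regulatory factor gene induced by interferon itself, was also brightest in experiment 2, with 2639.8 ± 312 in experiment 3, 11222 ± 1149 in experiment 2 and 2471 ± 306 in experiment 1 (SD, n = 6 arrays each for these genes). Of the 29 regulators tested, 10 were higher and 9 lower between experiments 3 and 1, 14 higher and 3 lower between experiments 2 and 1, and 2 higher and 15 lower between experiments 3 and 2. Of 19 interferon response genes, 6 were higher and 3 lower, 9 higher and 2 lower, and 5 higher and 8 lower in the same order of comparisons. Of all probe sets tested, 22.9%, 18.5% and 11.8% were higher in these comparisons, and 21.4%, 17.3% and 12.3% lower. Between experiments 3 and 1, 44.3% differed in either direction, and the interferon response count there is near that share.

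Primary LPS genes were mostly lower in experiment 3. Of 21 tested, 2 were higher and 15 lower between experiments 3 and 1, with a median of -0.63. The cytokine gene Tnf differed by -2.85, Ccl7 by -3.16 and Ccl2 by -2.23, while Il1b was 1.97 higher, and all 4 passed the test. Between experiments 2 and 1, 5 were higher and 5 lower (median 0.04), and between experiments 3 and 2, 1 was higher and 14 lower (median -0.85). Of all probe sets tested, 22.9%, 18.5% and 11.8% were higher in these 3 comparisons, and 21.4%, 17.3% and 12.3% lower.

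Markers of other cell types also differed between the experiments, as did a large share of all probe sets. Granulocyte markers, of which 11 of 14 could be tested, had a summed signal of 6554 to 9871 in experiment 3, 13199.5 to 15720.5 in experiment 2 and 8224 to 9916 in experiment 1, with Cxcr2 below the array median on all arrays. Of them 6 were higher and 2 lower between experiments 2 and 1, and 1 higher and 4 lower between experiments 3 and 1. Of all probe sets tested, 18.5% were higher and 17.3% lower between experiments 2 and 1, and 22.9% and 21.4% between experiments 3 and 1. The latter make 44.3% in either direction, and the granulocyte count between experiments 3 and 1 is near that share. Lcn2, a gene of neutrophil granules too, was highest in experiment 2, as the summed granulocyte markers were, at 1.89 over experiment 1, and was 1.37 higher in experiment 3 than in experiment 1. Stromal markers, of which 10 of 12 could be tested, were higher in 8 and lower in 1 between experiments 3 and 1, and higher in 8 between experiments 2 and 1. Their summed signal was 37721 to 52105 in experiment 3, 44936 to 54996 in experiment 2 and 39690 to 51712 in experiment 1, and Lum and Thy1 were below the array median on all arrays. Col1a1, Col1a2, Col3a1, Fn1 and Acta2 averaged only 814, 1142, 458.5, 1200 and 4640 in experiment 2. The stromal sum therefore follows mainly other genes of that list and is no measure of the number of stromal cells. Dcn, also on the stromal list, was 27.9 to 51.6 in experiment 1. It passed the filter only through experiments 3 and 2, which favoured its differences from experiment 1. Dcn is among the 10 stromal markers tested, so the filter can have raised the stromal counts against experiment 1. Dendritic cell markers (9 of 12 tested) summed to 2684 to 3182 in experiment 3, 4180 to 4683 in experiment 2 and 5147.5 to 5783 in experiment 1. Most of this sum came from Cd74, H2-Aa and H2-Ab1, which averaged 2202, 1972 and 668 in experiment 1. The sum therefore follows mainly those genes and is no measure of the number of dendritic cells. Lymphocyte markers (4 of 12 tested, with Cd3g, Cd4, Ncr1 and Nkg7 below the array median on all arrays) summed to 1033 to 1517 in experiment 3, 555 to 977.5 in experiment 2 and 1324.5 to 1690.1 in experiment 1, and erythroid and mast cell markers (5 of 12 tested) to 299 to 537 in experiment 3, 423 to 723 in experiment 2 and 269.9 to 646 in experiment 1. The part of these cells in the differences of the secondary genes was not tested.

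Within the experiments, the question the design poses is whether IL-10 and time of LPS change expression during the first 30 min. No member gene passed in any of the 10 comparisons of treatment and time (limma), in which 0 to 0.059% of all probe sets tested passed, and 0 of the 7 member probe sets had an unadjusted p under 0.05. The shares were 0% for LPS plus IL-10 against LPS at 10 min (309 probe sets at an unadjusted p under 0.05), 0.00738% at 20 min, 0.0111% at 30 min and 0.0111% over the mean of the times. For 20 against 10 min they were 0.0111% under LPS plus IL-10 and 0% under LPS (899 at an unadjusted p under 0.05), for 30 against 10 min 0.0443% under LPS plus IL-10, 0.0184% under LPS and 0.059% over the mean of the treatments (0.0553% higher), and for the change of the IL-10 effect 0.00369%. With the experiment as a replicate block, which takes the large differences above out of the spread, the member count stayed at 0 in the 10 comparisons while the share of all probe sets was at most 0.435% (30 against 10 min, mean of the treatments) and 0.0332% for LPS plus IL-10 against LPS over the mean of the times. In that fit 2 of the 7 member probe sets had an unadjusted p under 0.05 for 30 against 10 min over the mean of the treatments and 1 for 20 against 10 min under LPS.

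The blocked fit gives the precision of these comparisons. For LPS plus IL-10 against LPS, averaged over the times, Saa3 differed by -0.01 (95% interval -0.18 to 0.16), Acod1 by -0.05 (-0.23 to 0.13) and Cfb by 0.01 (-0.28 to 0.30). Lcn2 differed by 0.11 (-0.09 to 0.31) and Marco by 0.03 (-0.18 to 0.25). Each of these intervals lies within 0.31 of no difference on the log2 scale. For the dim genes the intervals were wider, at 0.15 (-0.57 to 0.87) for Il12b, 0.13 (-0.46 to 0.71) for Il6, -0.56 (-1.25 to 0.13) for Csf3 and -0.05 (-0.35 to 0.25) for Nos2. Csf3 was lower with LPS plus IL-10 in 8 of 9 pairs of arrays of the same experiment and time, with an adjusted p of 0.998 in the fit without a filter.

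For 30 against 10 min over the mean of the treatments, Saa3 differed by 0.05 (-0.15 to 0.26), Lcn2 by 0.08 (-0.16 to 0.33) and Marco by -0.13 (-0.39 to 0.13). Acod1 differed by 0.25 (0.03 to 0.47), with a higher value at 30 min in 5 of 6 pairs, and an adjusted p of 0.604. Cfb differed by -0.36 (-0.71 to -0.01), with a lower value at 30 min in 6 of 6 pairs, and an adjusted p of 0.682. Il6 differed by 0.93 (0.21 to 1.65), with a higher value in 5 of 6 pairs and an adjusted p of 0.67, at signals of 11.4 to 96.4 at 30 min against 1.2 to 41.2 at 10 min. These 3 genes had intervals that leave out 0, and none passed over all probe sets tested. Il12b differed by 0.04 (-0.84 to 0.92), Csf3 by 0.14 (-0.70 to 0.99) and Nos2 by 0.00 (-0.37 to 0.37).

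Primary genes on the same arrays had already moved by 30 min. The chemokine gene Cxcl2 had a signal of 18371 ± 3672 at 30 min against 3557 ± 1163 at 10 min (SD, n = 6 arrays each), and rose by 2.40 (adjusted p = 8.2e-06 without and 6.4e-09 with the block). Cxcl1, its neutrophil-attracting relative, rose by 2.62, the survival gene Ier3 by 1.75 and Dusp1, a phosphatase that switches off MAP kinases, by 1.72, and these 4 were the primary genes that passed without the block. With it 19 of the 21 tested passed, and their median over the 21 was 1.33 against -0.03 over all genes tested. Of the 31 other late genes tested, 2 passed with the block, the activation marker Cd69 (1.05, adjusted p = 0.00603) and the fatty acid receptor gene Gpr84 (0.68, adjusted p = 0.0209), and the median over the 31 was 0.01. Among the regulators, 3 of 29 passed with the block, Nfkbiz (1.12), Jun (0.66) and Irf1 (0.59).

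**Figure D5:**
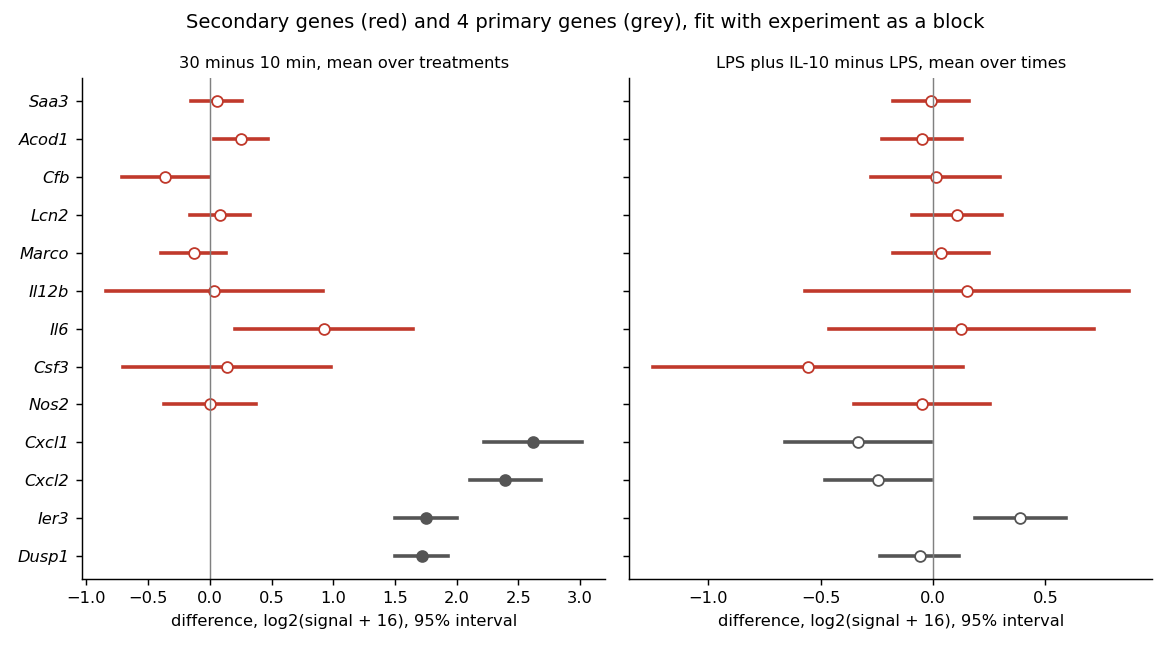
Differences on the log2(signal + 16) scale with 95% intervals from the fit with experiment as a block, for 30 minus 10 min (left) and LPS plus IL-10 minus LPS (right), for 9 secondary genes in red and 4 primary genes in grey; filled points passed an adjusted p of 0.05. The 4 primary genes rose by 1.72 to 2.62 by 30 min, while the secondary genes stayed between -0.36 and 0.93 with open points.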

How the data were processed

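The deposited table holds 1 intensity per probe set for each of 18 single-colour arrays, not logged, and GCOS 1.4 is the software that the submitters' processing notes name. How GCOS computed the signal is not stated in these sources. The mean after trimming 2% of probe sets at each end was near 500 on every array, so a change of total RNA per cell cannot be seen. No detection calls were used. The number of arrays limits the precision.

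GEO's platform annotation, which may be outdated, supplied the gene symbols (34958 probe sets with 1 symbol, 932 with several, 9211 with none, and no symbol changed on matching to RefSeq). The 64 control probe sets were left out. Values were analysed as log2(signal + 16), and a probe set was tested if it reached the array median on at least 3 arrays. limma 3.58.1 in R 4.3.3 (lmFit, eBayes with trend) used a term for each group, and for experiments the replicate number as well. Tests were two-sided, adjusted by Benjamini-Hochberg over all probe sets tested, with a threshold of 0.05. The fit was also run on simulated data with noise independent between arrays. Real arrays of an experiment are not independent, so nothing is concluded from that run.

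Replicate numbers are separate experiments per the labels. Deviations from group means correlated at 0.20 to 0.64 in 45 pairs of arrays with the same number and at -0.47 to 0.07 in 90 pairs with different numbers, so the numbers pair the samples. No 2 arrays were copies (at most 104 equal values in a pair). The members, lists, motifs and tests were chosen with earlier results of these data known. All members are named; of other lists, only called genes, at most the 6 with the largest change per comparison.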

Additional observations from a re-analysis of the deposited data

Results flagged for a closer look

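In experiment 2 the Cfb signal on the LPS plus IL-10 30 min array was 733, far below the other 5 arrays of that experiment, which lay between 972 and 1083. It was 1 of 27 sets of 6 arrays checked for such a gap, and chance alone marks about 1 in 20.

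For Nos2 the difference between 30 and 10 min had opposite signs under the treatments in every experiment. It was lower at 30 min in 3 of 3 experiments with LPS plus IL-10 and higher in 3 of 3 with LPS, and the mean differences were -0.22 apart on the log2(signal + 16) scale. It was picked out by its signs. The limma test of the change of the IL-10 effect, in the fit without a filter, gave a 95% interval of -0.85 to 0.41, and the signals, 3.5 to 13.5, were below the array median on all 18 arrays.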

How the results depend on the processing

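Results were recomputed after quantile normalisation, with a pseudocount of 1 or 64, with another filter (none, or the 75th percentile), without the intensity trend, without single arrays, replicates or groups, and with the replicate block. Comparisons that leave some groups out were also fitted on their own groups. The count of called member genes was 0 for each comparison of treatment and time under every alternative run, the replicate block included. Between experiments it was 5 with Cfb counted, except 4 between experiments 2 and 1 where Acod1 lost its call. Leaving out the 2 LPS 20 min arrays together with the replicate block was added after seeing the data.

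Values that changed sign were uncalled before and after. For LPS plus IL-10 against LPS these were Saa3 (0.035 with quantile normalisation, 0.75 without both LPS 20 min arrays and 0.0070 with the block as well, and -0.075 to 0.26 leaving out single replicates), Acod1 (0.32 without both arrays, and -0.19 to 0.28) and Cfb (-0.015 with a pseudocount of 64, -0.13 without both arrays and with the block, and -0.051 to 0.34). Il12b gave -0.025 without both arrays, -0.14 with the block as well, and -0.073 to 0.32 leaving out single replicates, Lcn2 gave -0.013 to 0.27 and Marco -0.015 to 0.19. For 30 against 10 min, Il12b gave -0.024 with a pseudocount of 64 and -0.38 to 0.41 leaving out single replicates, and Saa3 -0.068 to 0.14. Between experiments 2 and 1, Il12b gave -0.068 with quantile normalisation and -0.11 to 0.46 leaving out single groups or arrays. The unblocked fits without the LPS 20 min arrays are unbalanced over experiments by construction. Dim signals limit what can be said of Il6, Il12b, Nos2 and Csf3.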
